A study of Mus musculus with 15 samples.

Results

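The axon guidance ligands and receptors measured here were 69 of the 57180 genes in the deposited tables. They were taken by symbol and comprised 20 semaphorins, 9 plexins, 2 neuropilins, 8 ephrins, 14 Eph receptors, 3 Slits, 4 Robos, 4 netrins and 5 netrin receptors of the Unc5 and Dcc kind. The rule used symbols, though it was written with earlier results of these data known.

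RNA sequencing was performed on mouse brainstem in 2 experiments, and 15 libraries were analysed. In both, the paper describes the tissue as the ventilatory control centers of the brainstem. The AMPK experiment held 3 WT libraries (labelled AMPK+/+) and 3 libraries of the AMPKα2-/- genotype (labelled AMPK-/-), from animals that the study describes as neonatal and, in its methods, as aged postnatal days 1 to 5. The Lmx1b experiment held 3 WT (LMX1B+/+), 3 Lmx1b+/- and 3 Lmx1b-/- libraries from prenatal brainstem, whose age is not given in the sources used here. The mice were C57BL/6 with littermate controls, no treatment is labelled, and both alleles act in the whole body, so no group limits the loss to neurons. The labels do not state whether the libraries of a genotype came from separate animals, and the p-values then measure the spread between these libraries only. In RNA of such mixed tissue, fewer cells of a type and less RNA per cell cannot be told apart.

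Growing axons read these molecules at the growth cone. Semaphorins signal through plexins, with neuropilins as co-receptors for the secreted class 3 members. Ephrins are anchored in the membrane of one cell and bind Eph receptors on the next. Slits repel axons through Robo receptors and steer them away from the midline. Netrins attract axons through Dcc and repel them where Unc5 receptors take part. In the hindbrain, netrin-1 and the Slits of the floor plate guide commissural axons across the midline, and several semaphorins and plexins are also made by oligodendrocytes, blood vessels and other cells outside neurons.

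Library depth differed within the AMPK experiment. Total counts lay between 14975095 and 17384171 in 4 libraries, but came to 291212 in WT 2 and 335986 in AMPKα2-/- 3, where 3 counts already equalled 9.98 and 9.07 CPM (counts per 1000000 of the TMM-adjusted library total). Of the 69 genes, 29 had 3 counts or fewer in each of these 2 shallow libraries. The Lmx1b libraries held 28833130 to 37441679 counts, and 3 counts equalled at most 0.109 CPM. In the Lmx1b experiment 1 gene took 4.56% of counts in WT 3, against 21.9% in WT 1 and 18.4% in WT 2. The RPKM values are scaled to totals that include it, and the TMM factor of WT 3 was 1.24. Hindbrain Hox genes summed to 48.0 to 203 CPM in the AMPK libraries and 133 to 627 CPM in the Lmx1b libraries, while telencephalon markers summed to 5.42 to 19.1 and 88.3 to 161 CPM. Prkaa2, which encodes AMPKα2, was at 21.9, 26.6 and 29.7 CPM in WT and 25.4, 22.3 and 12.1 CPM in AMPKα2-/- (log2 fold change -0.20 ± 0.24, adjusted p = 0.659), so the transcript did not check the label. Lmx1b was at 22.5, 16.0 and 9.73 CPM in WT, at 1.45, 1.13 and 0.848 CPM in Lmx1b-/-, and at 30.5, 11.9 and 14.3 CPM in Lmx1b+/-, where it was not lower (log2 fold change 0.23 ± 0.33, adjusted p = 0.618). The directions given for AMPKα2-/- and Lmx1b+/- therefore rest on the labels.

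Of the genes called lower in a mutant of each experiment, Sema6b and Sema7a are those with a RefSeq stretch before the start that holds no annotated exon, and these stretches are shown.
Sema6b, mouse GRCm38.p6, chr17:56140344-56140593, minus strand: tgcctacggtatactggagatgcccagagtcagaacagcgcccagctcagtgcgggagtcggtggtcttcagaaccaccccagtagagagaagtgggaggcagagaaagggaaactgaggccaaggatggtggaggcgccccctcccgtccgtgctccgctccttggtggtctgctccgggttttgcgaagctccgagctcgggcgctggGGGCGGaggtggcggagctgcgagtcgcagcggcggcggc
Sema7a, mouse GRCm38.p6, chr9:57939862-57940111, plus strand: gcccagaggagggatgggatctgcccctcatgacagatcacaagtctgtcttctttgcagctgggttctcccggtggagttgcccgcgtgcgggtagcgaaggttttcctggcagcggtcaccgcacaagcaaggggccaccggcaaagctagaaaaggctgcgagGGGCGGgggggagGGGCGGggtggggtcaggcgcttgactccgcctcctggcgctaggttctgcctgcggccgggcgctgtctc
These are 250 bases 5′ of the start in RefSeq, a build earlier than that of the count tables, and neither stretch overlaps an annotated exon. Capitals mark GGGCGG (or CCGCCC, its other-strand form), the GC box bound by Sp-family factors, found 1 time in the Sema6b stretch and 2 times in the Sema7a stretch. A second Sema6b start had 1, while Plxnb1 had 4 and Plxnb3 0 in stretches that overlap exons, and Plxna1 was not matched. A RefSeq start was found for 59 of the 69 genes (75 stretches). Of these, 70.67% held a GC box on either strand, against 32.74% of all 32851 stretches, and the median GC content was 64.4% against 52.4%. TAATTA, the core that homeodomain factors such as Lmx1b can bind, was in 4.0% of the 75 stretches (those of Efna1, Epha5 and Robo3) and in 4.84% of all. None of the 3 genes was called in any comparison with WT, and Epha5 was called higher in Lmx1b-/- than in Lmx1b+/-. Binding of Lmx1b to these stretches was not tested.

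Levels can be compared between genes only per transcript length, as RPKM (reads per kilobase of gene, scaled to library size). Efnb3, a transmembrane ephrin that forms a barrier for axons at the midline, was highest in the WT libraries of both experiments, at 57.2 ± 14.6 RPKM (SD, n = 3) in the AMPK experiment and 54.7 ± 12.7 in the Lmx1b experiment. In the AMPK experiment the next was Sema7a, a semaphorin held in the membrane by a lipid anchor, at 32.4 ± 8.94 RPKM. Sema6d (13.0 ± 1.98), Sema4d (13.0 ± 4.67), Ephb6 (11.2 ± 0.625) and Plxnb1 (11.0 ± 2.30) followed and did not differ from each other beyond their SD. In the Lmx1b experiment the plexins Plxna1 (26.1 ± 6.42 RPKM) and Plxnb2 (22.3 ± 2.45) came after Efnb3, with overlapping spreads, and were followed by Sema6b (17.2 ± 4.50) and Ntn1 (15.5 ± 2.42), the netrin of the floor plate.

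The highest member of each remaining family was, in the AMPK WT libraries, Unc5b at 9.72 ± 3.28 RPKM, Slit1 at 4.69 ± 1.37, Robo2 at 4.07 ± 0.259, Ntn1 at 3.01 ± 1.06 and Nrp2 at 2.49 ± 0.82. In the Lmx1b WT libraries it was Robo2 at 13.0 ± 1.75, Epha4 at 12.2 ± 3.14, Slit1 at 10.1 ± 1.59, Nrp2 at 9.07 ± 1.52 and Unc5a at 7.86 ± 1.64. Robo2, Slit1, Ntn1 and Nrp2 thus led their families in both experiments. At the other end, Ntn5 was at 0.0897 and 0.105 RPKM and passed the filter on low counts in neither experiment, and Efna4 (0.0807 RPKM) and Epha1 (0.430 RPKM) failed it in the AMPK experiment.

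**Figure D1:**
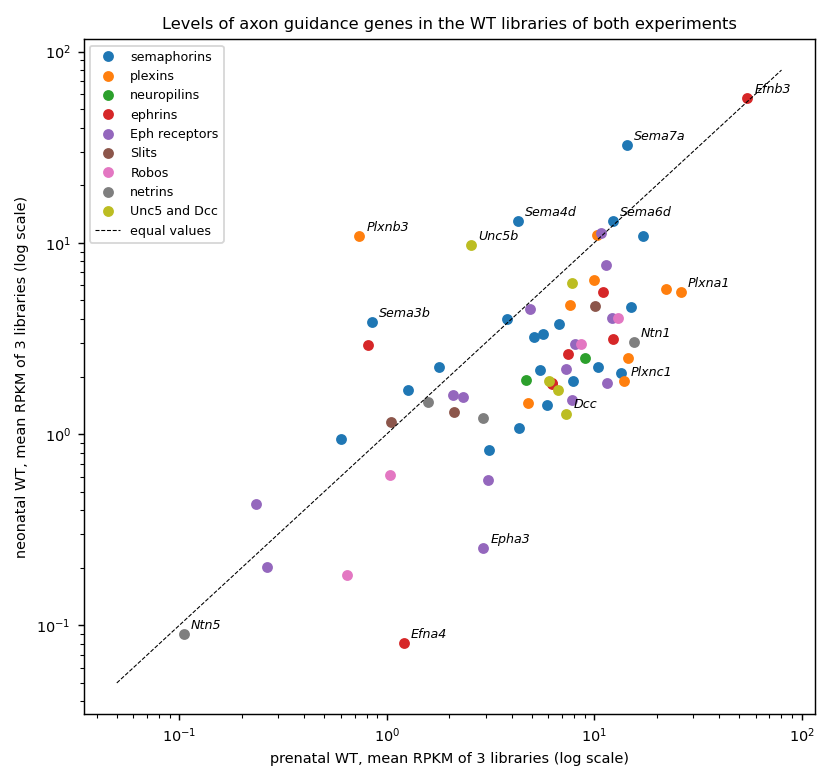
Mean RPKM of each of the 69 genes in the 3 prenatal WT libraries (x axis, log scale) and in the 3 neonatal WT libraries (y axis, log scale), coloured by family, with a dashed line at equal values. Efnb3 lies on the line at the top right, Plxnb3, Unc5b and Sema3b lie far above it, and Ntn1, Dcc, Epha3 and Efna4 lie far below it.

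The WT libraries of the 2 experiments are given side by side without a test, since age and experiment, with any batch between them, cannot be told apart. Plxnb3, a receptor for Sema5a that is found in oligodendrocytes, was at 10.8 RPKM in the neonatal and 0.736 in the prenatal WT libraries. Sema4d, also made by oligodendrocytes, was at 13.0 and 4.27, and Unc5b, a netrin receptor of neurons and vessels, at 9.72 and 2.55. Oligodendrocyte lineage markers summed to 14518 to 24761 CPM in the 3 neonatal and 379 to 447 CPM in the 3 prenatal WT libraries. The reverse order held for Ntn1 (3.01 and 15.5 RPKM), its attractive receptor Dcc (1.28 and 7.35), Plxna1 (5.52 and 26.1), Plxnc1 (1.89 and 13.9), Sema4g (2.09 and 13.5), Ephb2 (1.85 and 11.5) and Epha3 (0.253 and 2.92). Levels in the 2 experiments lay within the SD of each other for Ephb6 (11.2 ± 0.625 and 10.8 ± 2.85 RPKM), Sema6d (13.0 ± 1.98 and 12.3 ± 2.23) and Plxnb1 (11.0 ± 2.30 and 10.4 ± 1.36).

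**Figure D2:**
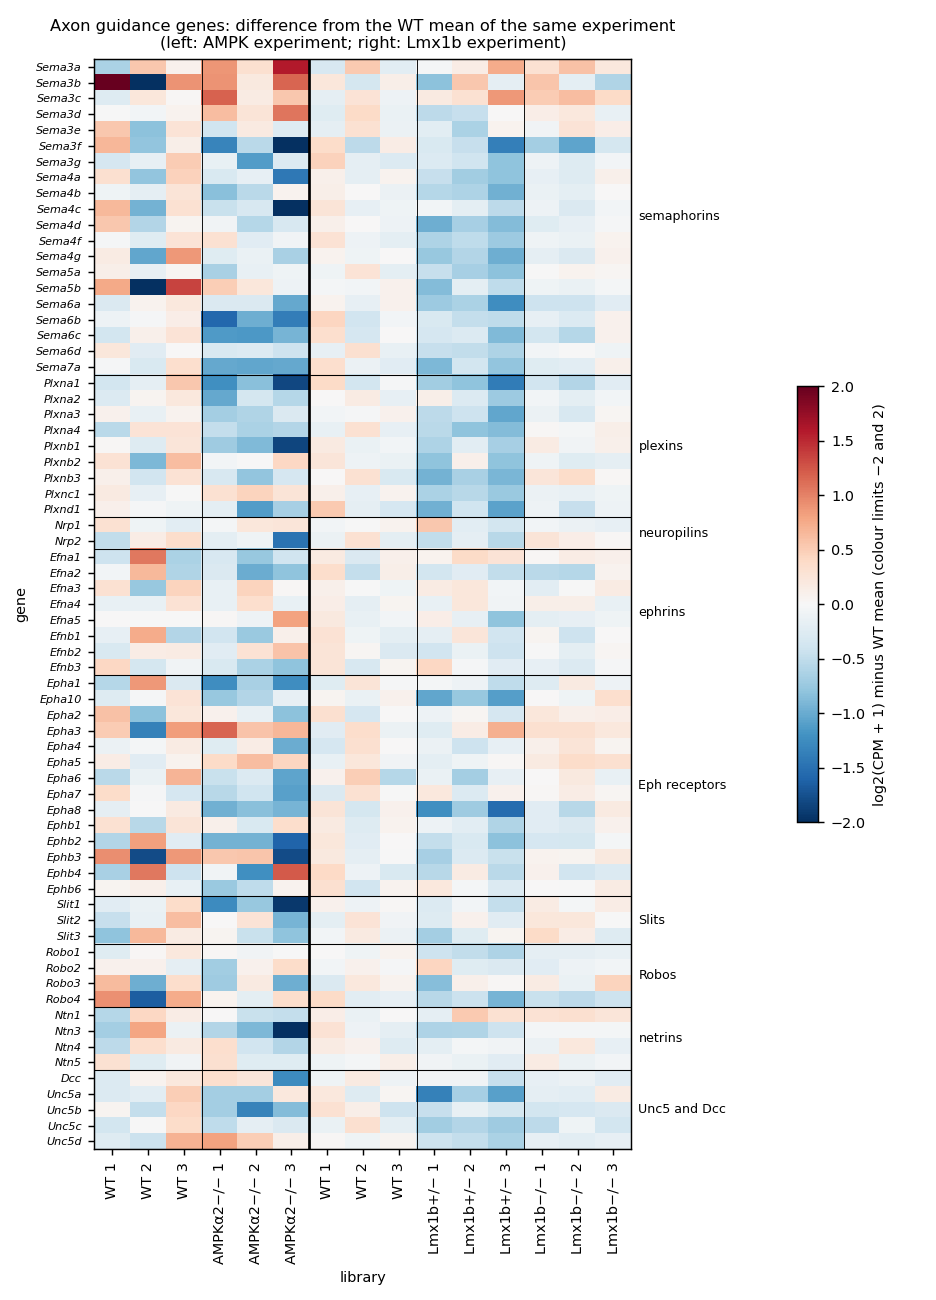
Difference of log2(CPM + 1) from the WT mean of the same experiment for the 69 genes (rows, by family) in the 15 libraries (columns), with the colour scale limited to -2 and 2. The 3 Lmx1b+/- columns are blue in most semaphorin and plexin rows, the 3 Lmx1b-/- columns are paler, and the shallow libraries WT 2 and AMPKα2-/- 3 of the AMPK experiment hold most of the darkest cells, Sema3b in WT 1 being an exception.

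The summed level of the 69 genes was 2053, 1777 and 2261 CPM in the WT and 1560, 1527 and 1514 CPM in the AMPKα2-/- libraries of the AMPK experiment. In the Lmx1b experiment it was 4094, 3876 and 3740 CPM in WT, 3144, 3152 and 2681 CPM in Lmx1b+/- and 3634, 3573 and 3846 CPM in Lmx1b-/-. The sums of AMPKα2-/- and Lmx1b+/- did not overlap with those of their WT libraries, and those of Lmx1b-/- did.

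The first comparison asked which genes differ in the brainstem without AMPKα2, a catalytic subunit of the energy-sensing kinase. By number, 6 of 20 semaphorins and 3 of 9 plexins were called, with 1 of 3 Slits, 1 of 7 ephrins tested and 1 of 5 netrin receptors: in AMPKα2-/-, Sema7a, Sema6b, Sema6c and Sema3f and the plexins Plxnb1, Plxna1 and Plxnb3 were lower, together with Unc5b, Slit1 and Efnb3, while the secreted semaphorins Sema3a and Sema3c were higher. Differential expression was tested with edgeR's quasi-likelihood test with Benjamini-Hochberg adjustment over all genes, and a gene is called here at an adjusted p under 0.05. Of 66 genes that passed the filter on low counts, 12 were called (18.2%), against 8.94% of all 17397 genes tested. Lower were 10 (15.2%, against 5.17% of all genes) and higher 2 (3.03%, against 3.77%). The log2 fold change was below 0 for 53 of 66 (80.3%, against 50.5% of all genes), with a median of -0.48 against -0.01. At an unadjusted p under 0.05 there were 31 (47.0%, against 24.6%). In 14 genes (21.2%, against 12.7%) every knockout library lay below every WT library, and in 3 (4.55%, against 13.9%) above. Both types of role were touched, with 6 of 33 ligands and 4 of 33 receptors lower.

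Sema7a, which promotes axon growth and binds plexin C1 and integrins, was at 97.3, 79.9 and 126 CPM in the 3 WT libraries and 48.2, 47.9 and 48.4 CPM in the 3 AMPKα2-/- libraries. The groups did not overlap (log2 fold change -1.14 ± 0.18 (SE), adjusted p = 0.000915). The closeness of the 3 knockout values is not a measure of their spread, as 3 counts equalled 9.07 CPM in the shallow library AMPKα2-/- 3. Sema6b, a transmembrane ligand of plexin A receptors, was at 38.0, 39.9 and 44.8 CPM in WT and 13.1, 20.3 and 15.1 CPM in AMPKα2-/-. Its groups did not overlap either (-1.31 ± 0.23 (SE), adjusted p = 0.00146). Sema6c, of the same class, was at 9.41, 13.3 and 15.1 CPM in WT and 5.09, 5.05 and 6.04 in AMPKα2-/-, without overlap (-1.27 ± 0.31 (SE), adjusted p = 0.0135), though WT 2 held 4 counts and AMPKα2-/- 3 held 2. Sema3f, a secreted repellent that acts through neuropilin-2, was at 10.9, 3.33 and 7.06 CPM in WT and 1.98, 4.15 and 0 CPM in AMPKα2-/- (-1.53 ± 0.40 (SE), adjusted p = 0.0192). Here the groups overlapped, with AMPKα2-/- 2 above the shallow WT 2. The value of 0 came from the shallow library AMPKα2-/- 3, where 3 counts equalled 9.07 CPM.

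The 2 semaphorins that were higher are both secreted class 3 members, and neither was called with DESeq2 or limma. Sema3a, the repellent ligand of neuropilin-1 and plexin A, was at 8.30, 19.97 and 14.2 CPM in WT and 25.4, 16.8 and 42.3 CPM in AMPKα2-/- (0.99 ± 0.30 (SE), adjusted p = 0.047). Sema3c, which guides neural crest cells and some axons, was at 18.8, 26.6 and 22.8 CPM in WT and 52.3, 25.3 and 33.2 in AMPKα2-/- (0.84 ± 0.25 (SE), adjusted p = 0.043). Both pairs of groups overlapped, in each case because AMPKα2-/- 2 lay below the shallow WT 2, the highest WT library. In WT 2, 3 counts equalled 9.98 CPM, and the other WT libraries lay below every knockout library. Of the 13 membrane-bound semaphorins of classes 4 to 7, 3 were lower and 0 higher, and all 13 had a log2 fold change below 0 (-1.31 to -0.05). The 7 secreted members ranged from -1.53 to 0.99.

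Among the plexins, Plxnb1, the receptor of Sema4d, was at 101, 83.2 and 117 CPM in WT and 60.1, 53.6 and 27.2 CPM in AMPKα2-/- (-0.98 ± 0.20 (SE), adjusted p = 0.00382). Plxna1, a signalling partner of neuropilins and receptor of Sema6d, was at 35.1, 39.9 and 66.2 CPM in WT and 18.9, 24.9 and 12.1 in AMPKα2-/- (-1.23 ± 0.25 (SE), adjusted p = 0.00422). In both, every knockout library lay below every WT library. Exons of Plxna1 share 10.71% of their bases with Gm26811 on the opposite strand in the GENCODE M21 annotation, and whether strand was used in counting is not given in the sources used here. Plxnb3 was at 69.8, 49.9 and 79.5 CPM in WT and 52.3, 37.4 and 51.4 in AMPKα2-/-, with overlapping groups (-0.63 ± 0.20 (SE), adjusted p = 0.0486), and none of 12 oligodendrocyte lineage markers was called. The other 6 plexins were not called, at -0.71 to 0.32, and Plxna2 (adjusted p = 0.0526) was nearest the threshold.

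For the netrin and Slit pathways, Unc5b was at 58.2, 39.9 and 74.4 CPM in WT and 34.6, 21.4 and 30.2 CPM in AMPKα2-/- (-1.14 ± 0.23 (SE), adjusted p = 0.0036). Slit1, a neuronal Slit, was at 21.9, 23.3 and 33.5 CPM in WT and 10.2, 14.9 and 6.04 in AMPKα2-/- (-1.17 ± 0.27 (SE), adjusted p = 0.00834). Neither gene's groups overlapped, though the Slit1 value of AMPKα2-/- 3 rests on 2 counts and lies under that library's 3-count level of 9.07 CPM. The 4 Robos, the 3 netrins tested and Dcc were not called, and the smallest adjusted p among Robos was 0.132 for Robo4 and among netrins 0.402 for Ntn3, both with 3 counts or fewer in each shallow library. Nrp2, the neuropilin with the smaller p, was at 18.9, 29.9 and 34.8 CPM in WT and 23.4, 25.5 and 9.07 CPM in AMPKα2-/- (-0.25 ± 0.26 (SE), adjusted p = 0.602). Its fold change turned to 0.06 when a trend with gene length was removed.

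Of the ephrins, Efnb3 alone was called, at 227, 133 and 162 CPM in WT and 136, 109 and 96.7 CPM in AMPKα2-/- (-0.62 ± 0.19 (SE), adjusted p = 0.0415). AMPKα2-/- 1 lay above the shallow WT 2, so the groups overlapped. None of the 13 Eph receptors tested was called by edgeR. The one with the smallest p was Epha8, a receptor of ephrin-A ligands, at 5.79, 6.66 and 7.76 CPM in WT and 2.97, 3.30 and 3.02 in AMPKα2-/- (-1.11 ± 0.36 (SE), adjusted p = 0.0536), with 2 counts in WT 2 and 1 count in AMPKα2-/- 3. Epha5 was higher in all 3 knockout libraries (60.9, 72.4 and 63.5 CPM against 51.9, 39.9 and 48.9) but missed the threshold (0.43 ± 0.18 (SE), adjusted p = 0.141).

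**Figure D3:**
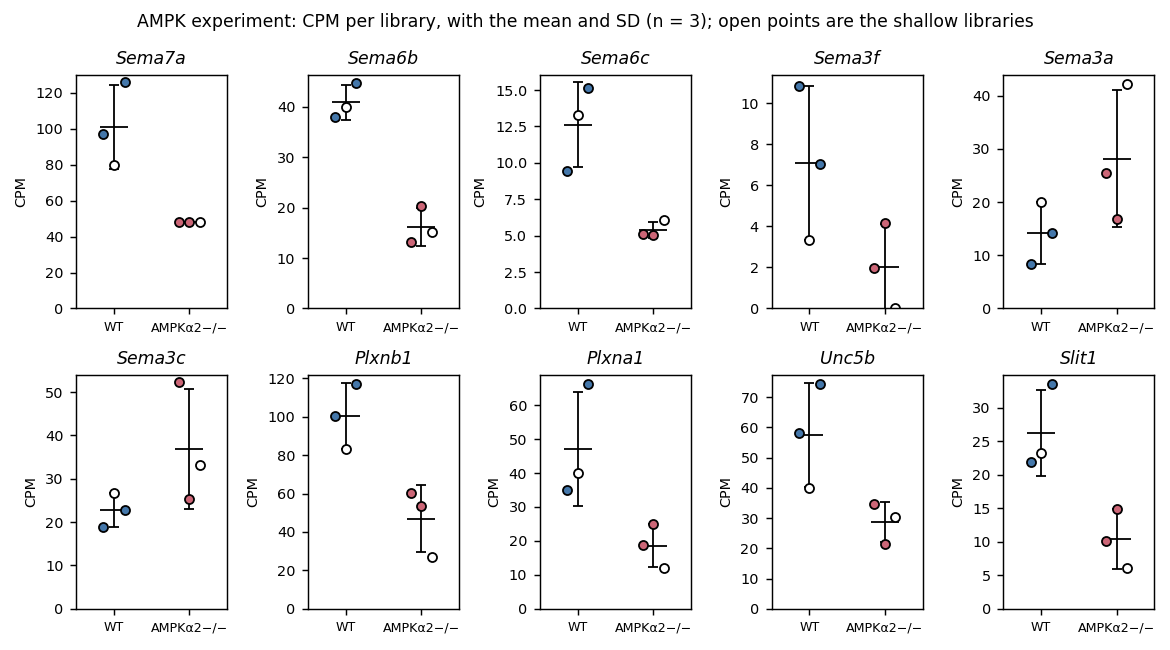
CPM of 10 called genes in the 3 WT and 3 AMPKα2-/- libraries (points), with the mean (long bar) and SD (error bar) of each group, and open points for the 2 shallow libraries. Sema7a, Sema6b, Sema6c, Plxnb1, Plxna1, Unc5b and Slit1 show no overlap between the groups, whereas Sema3f, Sema3a and Sema3c overlap. The other called genes, Efnb3 and Plxnb3, are not shown and also overlap.

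Other genes of the pathway were taken from lists written from general knowledge. Of 60 cytoplasmic and cytoskeletal effectors of guidance, 4 were higher and 15 lower in AMPKα2-/- (against 3.77% and 5.17% of all genes), with a median log2 fold change of -0.29 against -0.01 for all genes. Gap43 (1.48 ± 0.19), a growth cone protein, Tubb3 (0.65 ± 0.17), the neuronal tubulin, and Cfl1 (0.63 ± 0.17), which severs actin filaments, were higher. Tiam1 (-1.35 ± 0.27), an activator of Rac, Trim67 (-1.53 ± 0.35), a ubiquitin ligase that binds Dcc, and Src (-0.89 ± 0.21), the kinase, were lower. Of 53 tested ligands and receptors outside these families, 1 was higher and 10 lower. The one higher was Nell2 (0.86 ± 0.22), a ligand of Robo3, and the strongest lower ones were the cadherins Celsr3 (-1.75 ± 0.26) and Celsr2 (-1.13 ± 0.21) and the teneurin Tenm3 (-1.26 ± 0.22).

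Calls among the axon guidance genes depended on the libraries. Sema7a, Sema6b, Unc5b and Plxnb1 were called in all 6 fits that left out 1 library, whereas Sema3c was called in 1 of the 6, Sema3a and Plxnb3 in 2, Sema3f and Efnb3 in 3, Slit1 and Sema6c in 4 and Plxna1 in 5. The number called was 7 of 67 (10.4%) without AMPKα2-/- 1, against 5.14% of all genes, and 7 of 67 without AMPKα2-/- 3, against 3.31%. Without both shallow libraries, from 2 libraries against 2, it was 0 of 66, against 6 of all 18088 genes. At an unadjusted p under 0.05 there were 28 of the 66, against 3657 of the 18088. In that fit the fold changes of the 12 genes kept their sign, for instance -1.21 for Sema7a (adjusted p = 0.120) and -1.30 for Sema6b (adjusted p = 0.123). Several measures moved with genotype, and apart from gene length their part in these results was not tested. The marker counts below stand against 3.77% of all genes higher and 5.17% lower. Mitochondrially encoded genes took 10.4 to 13.9% of counts in WT and 20.05 to 21.7% in AMPKα2-/-, and genes longer than the median took 44.1 to 53.9% and 36.9 to 40.9%. With the trend with gene length removed, 9 genes were lower (all genes 3.06%) and 3 higher (all genes 2.12%). Of 10 tested serotonergic markers 6 were higher (summed 55.1 to 83.2 CPM in WT, 91.5 to 466 in AMPKα2-/-), and of 7 tested motor neuron markers 4 (14.1 to 111 and 139 to 265 CPM). Of 10 markers of meninges and fibroblasts 3 were higher (109 to 269.6 and 184 to 297 CPM), and all 7 tested skeletal muscle markers were lower, with a sum of 989.8 CPM in WT 3 against 8.92 to 22.1 CPM in the other 5 libraries. Choroid plexus markers had 2 of 5 tested higher (21.9 to 30.7 CPM in WT, 49.4 to 142 in AMPKα2-/-), erythroid markers 2 of 5 (246 to 325 and 299 to 485), floor plate markers 1 of 4 (104 to 139.8 and 99.6 to 112), cerebellar markers 2 higher and 1 lower of 9 (159.7 to 172 and 166 to 278), and midbrain markers 1 lower of 7 (33.3 to 45.0 and 21.0 to 32.2). Of the lists given with values, Hbb-y and Hba-x (erythroid), Foxa2 (floor plate), Atoh1 (cerebellar) and Dlx2 (telencephalon) were at 0 in all 6 libraries. Without WT 3, 7 genes were lower (all genes 1.60%) and 1 higher (all genes 1.499%), and Plxna1, Slit1, Sema6c, Sema3c and Plxnb3 were no longer called.

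The second experiment asked what the loss of Lmx1b, a homeodomain factor needed for serotonergic and midbrain dopaminergic neurons and for dorsal-ventral patterning, changes in the prenatal brainstem. The genes described here were lower in Lmx1b+/- than in WT across nearly all families: 11 of 20 semaphorins, 7 of 9 plexins, Nrp2, 4 of 14 Eph receptors, 2 of 4 Robos, Ntn3 and 3 of the 5 netrin receptors. Sema3c alone was higher. No ephrin and no Slit was called. Of 68 genes tested, 30 were called (44.1%, against 36.7% of all 21729 genes), of which 29 were lower (42.6%, against 17.3%) and 1 higher (1.47%, against 19.4%). The log2 fold change was below 0 for 57 of 68 (83.8%, against 52.1%), with a median of -0.42 against -0.03. At an unadjusted p under 0.05 there were 36 (52.9%, against 46.1%). In 27 genes (39.7%, against 21.9% of all genes) every Lmx1b+/- library lay below every WT library, and in 0 above (against 23.4%).

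Within the semaphorins the lower calls were among the membrane-bound members, and the difference between classes was not tested. Of 13 membrane-bound semaphorins of classes 4 to 7, 11 were lower, at -0.87 to -0.48, and all 13 had a log2 fold change below 0. Of 7 secreted class 3 members 0 were lower and 1 was higher, at -0.76 to 0.48. Sema4d, a ligand of plexin B1, was at 33.3, 30.9 and 28.5 CPM in WT, 15.2, 19.0 and 16.5 CPM in Lmx1b+/- and 26.1, 27.5 and 30.3 CPM in Lmx1b-/-. Its Lmx1b+/- libraries lay below the other 6 (against WT, -0.87 ± 0.11 (SE), adjusted p = 0.0001). Sema4g, a ligand of plexin B2, was at 115, 103 and 110.2 CPM in WT, 64.3, 72.5 and 54.9 in Lmx1b+/- and 97.0, 89.1 and 116 in Lmx1b-/- (-0.78 ± 0.12 (SE), adjusted p = 0.000321). Sema6a, which binds plexins A2 and A4, was at 128, 109 and 130.1 CPM in WT, 73.4, 78.6 and 51.1 in Lmx1b+/- and 91.0, 91.4 and 104 in Lmx1b-/-, with the lowest values again in Lmx1b+/- and intermediate ones in Lmx1b-/- (-0.86 ± 0.14 (SE), adjusted p = 0.000513). The other class 4 members Sema4b (-0.74 ± 0.13 (SE), adjusted p = 0.000613), Sema4a (-0.68, adjusted p = 0.00144) and Sema4f (-0.66, adjusted p = 0.00226) also had all 3 Lmx1b+/- libraries below the other 6.

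The class 5 and 6 semaphorins, which carry thrombospondin repeats or long cytoplasmic tails, gave similar fold changes. Sema5a was at 63.1, 80.5 and 58.4 CPM in WT, 48.3, 41.9 and 37.4 CPM in Lmx1b+/- and 66.3, 70.0 and 68.5 CPM in Lmx1b-/- (-0.66 ± 0.13 (SE), adjusted p = 0.0013 for Lmx1b+/- against WT). Sema5b had a log2 fold change of -0.53 ± 0.15 (SE), adjusted p = 0.0155, and its call was lost without WT 3. Sema6d was at 108, 150.2 and 108 CPM in WT, 87.2, 85.3 and 78.2 in Lmx1b+/- and 116, 120.0 and 113 in Lmx1b-/- (-0.55 ± 0.12 (SE), adjusted p = 0.0038). In Sema5a, Sema5b and Sema6d the Lmx1b+/- libraries lay below the other 6. Sema7a was at 56.3, 40.8 and 37.8 CPM in WT, 23.3, 34.1 and 25.2 in Lmx1b+/- and 37.3, 38.1 and 47.5 in Lmx1b-/- (-0.71 ± 0.17 (SE), adjusted p = 0.00601), and Sema6b at 85.2, 48.2 and 60.4 CPM in WT, 50.4, 45.0 and 43.8 in Lmx1b+/- and 56.0, 51.6 and 66.5 in Lmx1b-/- (-0.48 ± 0.17 (SE), adjusted p = 0.0417). Sema7a did not overlap between Lmx1b+/- and the rest, while Sema6b overlapped with WT and was called in 4 of 9 fits that left out 1 library (not without Lmx1b+/- 2, Lmx1b+/- 3, Lmx1b-/- 1, WT 1 or WT 3). Sema3c was the one higher gene, at 33.1, 45.9 and 35.0 CPM in WT, 42.9, 46.9 and 69.4 in Lmx1b+/- and 54.0, 58.2 and 49.2 in Lmx1b-/- (0.48 ± 0.17 (SE), adjusted p = 0.0398). Its call was lost in 4 of the 9 fits (without Lmx1b+/- 3, Lmx1b-/- 1, WT 1 or WT 3), with upper quartile scaling, with limma and from the 6 libraries of WT and Lmx1b+/- alone.

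Receptors of the semaphorins were lower as well. Plxnc1, the receptor of Sema7a, was at 116, 96.0 and 113 CPM in WT, 69.4, 73.2 and 64.4 CPM in Lmx1b+/- and 99.3, 97.2 and 101 CPM in Lmx1b-/-, with every Lmx1b+/- library below the other 6 (-0.65 ± 0.10 (SE), adjusted p = 0.000213). Plxna4, a partner of neuropilins in class 3 signalling, was at 119, 163 and 117 CPM in WT, 89.6, 74.9 and 71.1 in Lmx1b+/- and 133, 128 and 142 in Lmx1b-/- (-0.76 ± 0.13 (SE), adjusted p = 0.000777). Plxna1 was at 285, 169 and 213 CPM in WT, 134, 124 and 81.9 in Lmx1b+/- and 167, 145 and 185 in Lmx1b-/- (-0.97 ± 0.20 (SE), adjusted p = 0.00198). In all 3 plexins each Lmx1b+/- library lay below the other 6. Plxnb3, the least abundant plexin here, fell by 1.12 on the log2 scale, from 4.50, 5.75 and 3.42 CPM to 1.85, 2.48 and 1.92 CPM, and was at 5.49, 6.06 and 4.56 CPM in Lmx1b-/- (adjusted p = 0.00169). Plxna3 (-0.64 ± 0.15 (SE), adjusted p = 0.00411), Plxnb1 (-0.50 ± 0.13 (SE), adjusted p = 0.00968) and Plxnd1 (-0.86 ± 0.23 (SE), adjusted p = 0.0099), the endothelial receptor of Sema3e, completed the 7, while Plxna2 (-0.26) and Plxnb2 (-0.45) were not called. Nrp2 was at 92.2, 125 and 87.6 CPM in WT, 71.1, 88.1 and 68.3 in Lmx1b+/- and 120.1, 110.2 and 102 in Lmx1b-/- (-0.42 ± 0.14 (SE), adjusted p = 0.0318), with WT 3 just below Lmx1b+/- 2, and its call was lost without Lmx1b+/- 1, Lmx1b+/- 3 or WT 2. Nrp1 was at 41.0, 42.6 and 44.7 CPM in WT and 62.3, 36.7 and 32.9 in Lmx1b+/- and was not called (adjusted p = 0.895).

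In the netrin pathway 3 of the 4 Unc5 receptors were lower, and the ligand Ntn1 and the attractive receptor Dcc were not called. Unc5a was at 35.2, 25.4 and 31.4 CPM in WT, 11.3, 18.8 and 13.8 CPM in Lmx1b+/- and 26.8, 26.2 and 34.2 CPM in Lmx1b-/-, without overlap between Lmx1b+/- and the other 6 (-1.07 ± 0.18 (SE), adjusted p = 0.00061). Unc5d, which also binds Flrt proteins, was at 58.9, 54.5 and 60.1 CPM in WT, 43.3, 41.2 and 37.1 in Lmx1b+/- and 51.6, 49.5 and 51.7 in Lmx1b-/- (-0.51 ± 0.09 (SE), adjusted p = 0.000739). Unc5c was at 99.2, 135 and 94.7 CPM in WT, 66.4, 72.1 and 66.2 in Lmx1b+/- and 75.1, 102 and 84.1 in Lmx1b-/- (-0.69 ± 0.14 (SE), adjusted p = 0.00228). These receptors too had all Lmx1b+/- libraries below the other 6. Dcc was at 85.5, 103 and 84.2 CPM in WT, 85.8, 86.0 and 65.9 in Lmx1b+/- and 80.8, 83.4 and 77.5 in Lmx1b-/- (for Lmx1b+/- against WT, -0.20, adjusted p = 0.205), and Ntn1 at 99.9, 82.5 and 91.1 CPM in WT, 79.8, 132 and 113 in Lmx1b+/- and 111, 114 and 107 in Lmx1b-/- (0.25, adjusted p = 0.213). Ntn3, a netrin of lower abundance, was at 17.2, 12.8 and 12.1 CPM in WT, 8.72, 8.84 and 10.2 in Lmx1b+/- and 13.5, 13.5 and 13.5 in Lmx1b-/- and was called (-0.60 ± 0.15 (SE), adjusted p = 0.00588). Unc5b was not called (-0.37 ± 0.17 (SE), adjusted p = 0.119). The difference between the receptors' fold changes was not tested.

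Of the Slit receptors, Robo1, which keeps crossed axons from returning to the midline, was at 134, 126 and 141 CPM in WT, 101, 94.9 and 86.3 CPM in Lmx1b+/- and 118, 117 and 121 CPM in Lmx1b-/-. The 3 genotypes did not overlap (Lmx1b+/- against WT, -0.51 ± 0.09 (SE), adjusted p = 0.000828), but with the length trend removed the fold change was -0.15 (adjusted p = 0.272). Robo4, the endothelial Robo, was at 6.96, 4.29 and 4.46 CPM in WT, 3.18, 3.55 and 2.22 in Lmx1b+/- and 3.52, 3.27 and 3.58 in Lmx1b-/- (-0.81 ± 0.23 (SE), adjusted p = 0.0134). The calls of Robo4 and Plxnd1 were lost without Lmx1b+/- 3 or WT 1. Robo2, the most abundant Robo, was at 198, 219 and 202 CPM in WT, 278, 174 and 168 in Lmx1b+/- and 176, 192 and 199 in Lmx1b-/- and was not called, with Lmx1b+/- 1 above all other libraries. The Slit with the smallest p was Slit1, at 59.2, 52.2 and 56.8 CPM in WT, 46.3, 53.7 and 40.2 in Lmx1b+/- and 62.6, 54.8 and 62.4 in Lmx1b-/- (-0.26 ± 0.11 (SE), adjusted p = 0.0833).

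The 4 Eph receptors called were Epha10, Epha8, Ephb2 and Ephb3. Epha10, an Eph receptor whose kinase domain lacks activity, was at 34.0, 29.8 and 34.7 CPM in WT, 15.4, 18.9 and 14.7 CPM in Lmx1b+/- and 32.8, 30.8 and 41.5 CPM in Lmx1b-/- (-1.01 ± 0.14 (SE), adjusted p = 0.000118). Epha8 was at 40.8, 26.4 and 36.1 CPM in WT, 13.9, 20.3 and 11.0 in Lmx1b+/- and 28.7, 22.8 and 38.3 in Lmx1b-/- (-1.19 ± 0.23 (SE), adjusted p = 0.00153). For both, the 3 Lmx1b+/- libraries lay below the other 6. Ephb2 (-0.54 ± 0.15 (SE), adjusted p = 0.0128) and Ephb3 (-0.49 ± 0.14 (SE), adjusted p = 0.0136), receptors of ephrin-B ligands, were each called in 7 of 9 fits that left out 1 library, Ephb2 not without Lmx1b+/- 3 or WT 1 and Ephb3 not without Lmx1b+/- 1 or WT 1. The other 10 Eph receptors, including the abundant Epha4 and Epha5, ranged from -0.53 to 0.25 without a call. The 8 ephrins ranged from -0.42 to 0.38. The one with the smallest p was Efnb2, which marks arteries as well as guiding axons, at 48.4, 41.3 and 32.7 CPM in WT, 30.7, 36.7 and 30.0 in Lmx1b+/- and 39.9, 35.1 and 41.2 in Lmx1b-/- (-0.33 ± 0.14 (SE), adjusted p = 0.0786).

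**Figure D4:**
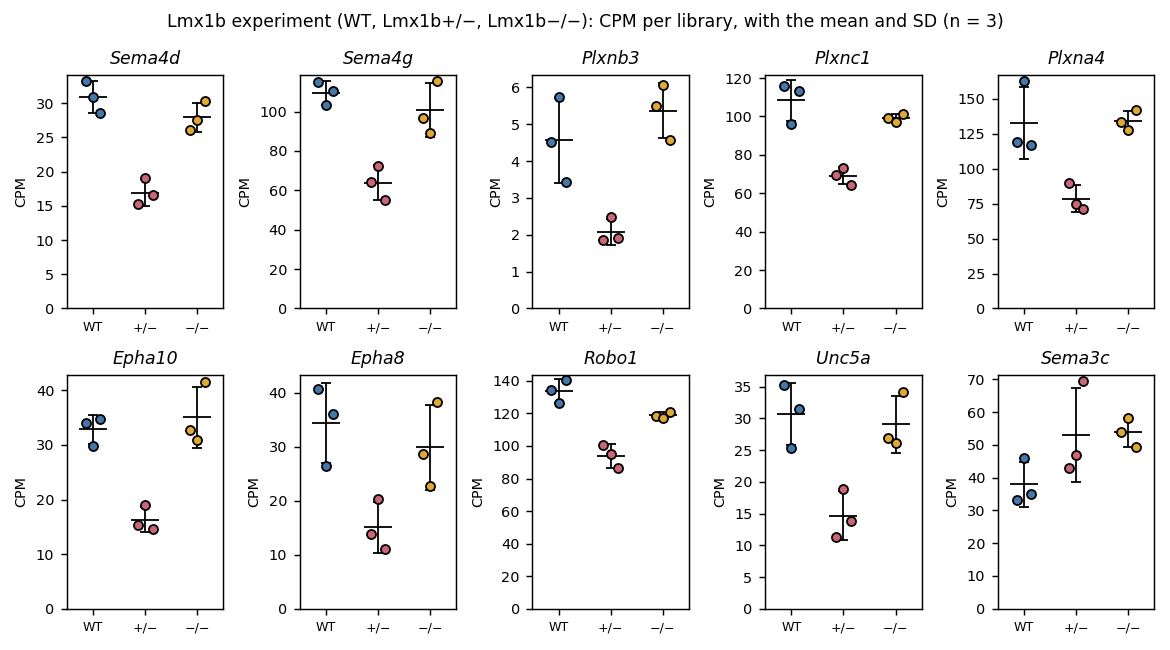
CPM of 10 genes in the 3 WT, 3 Lmx1b+/- and 3 Lmx1b-/- libraries (points), with the mean (long bar) and SD (error bar) of each group. In 9 of the 10 genes the Lmx1b+/- libraries lie below all 6 others, and Sema3c overlaps between WT and Lmx1b+/-.

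In 24 of 68 genes (35.3%, against 15.6% of all genes) the 3 Lmx1b+/- libraries lay below the 6 libraries of both other genotypes, and in 0 (against 18.1%) above them. Of 60 effectors 5 were higher and 28 lower in Lmx1b+/- (against 19.4% and 17.3% of all genes), with a median log2 fold change of -0.27 against -0.03. Higher were Nck1 (0.71 ± 0.10), an adaptor, Cdc42 (0.64 ± 0.12), a small GTPase of the growth cone, and Gipc1 (0.46 ± 0.12), while Trim9 (-0.70 ± 0.09), a ubiquitin ligase that binds Dcc, Srgap3 (-0.79 ± 0.11), a GTPase activator of the Slit and Robo pathway, and Mical2 (-1.26 ± 0.17), which oxidises actin, were lower. Of 55 other ligands and receptors, 1 was higher (Flrt3, 0.51 ± 0.15) and 27 lower, led by Flrt1 (-1.20 ± 0.12), Dscam (-0.91 ± 0.12) and Nfasc (-0.88 ± 0.12), all adhesion proteins of axons.

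Of the 29 lower genes, 22 were called in all 9 fits that left out 1 library. The 9 fits gave 24 to 34 calls among the members of these families (34.8 to 49.3%, against 26.5 to 37.2% of all genes). Other measures also differed in the same libraries. The marker counts below stand against 19.4% of all genes higher and 17.3% lower. Genes longer than the median took 41.0 to 46.9% of counts in Lmx1b+/-, 52.3 to 65.4% in WT and 55.3 to 56.2% in Lmx1b-/-, and the genes described here had a median length of 6851.5 bases against 3432 for all genes tested. With a trend with length removed, 19 were lower (all genes 12.4%) and 3 higher (all genes 16.4%), with a median of -0.23 against -0.02, and Robo1, Sema5a, Sema5b, Sema6b, Sema6d, Unc5c, Nrp2, Plxnb1, Ephb2 and Ephb3 were no longer called. Mitochondrially encoded genes took 9.58 to 14.7% of counts in Lmx1b+/-, 5.57 to 6.74% in WT and 7.23 to 7.98% in Lmx1b-/-. All 8 tested erythroid markers were higher in Lmx1b+/- (summed 3551 to 7519 CPM, against 510.0 to 1251 in WT and 1061 to 2383 in Lmx1b-/-). Of 12 oligodendrocyte lineage markers 10 were lower (261 to 323 CPM, against 379 to 447 and 498 to 507), and of 9 astrocyte markers 6 (899 to 1085 CPM, against 1202 to 1680 and 1406 to 1743). Of 14 endothelial markers, the cell type of Robo4 and Plxnd1, 4 were lower and 1 higher (178 to 218 CPM, against 237 to 314 and 192 to 211). Of 10 hindbrain Hox genes 5 were higher (234 to 627 CPM, against 133 to 281 and 199.6 to 272), and of 10 neural progenitor markers 2 (1306 to 2061 CPM, against 990.0 to 1047 and 1106 to 1218). The progenitor count is near the share of all genes, and the median log2 fold change was -0.03 for both. Fabp7 alone was at 798, 950 and 1446 CPM in Lmx1b+/- and 407, 412 and 431 CPM in WT. Meninges and fibroblast markers had 5 of 10 lower (299 to 621 CPM, against 452 to 545 and 312 to 542), cerebellar markers 4 of 11 (423 to 580.1, against 607 to 729 and 468 to 549) and midbrain markers 3 of 10 (77.3 to 128, against 114 to 196 and 91.0 to 99.7). Floor plate markers had 3 of 9 higher (171 to 255 CPM, against 138 to 183 and 172 to 215), skeletal muscle markers 3 higher and 1 lower of 11 (27.6 to 28.1, against 20.01 to 26.8 and 19.8 to 27.4) and motor neuron markers 2 of 8 higher (112 to 143, against 76.3 to 129.7 and 99.5 to 139). The serotonergic, microglia, choroid plexus and telencephalon lists had at most 1 call in a direction. No gene of the lists given with values here was at 0 in all 9 libraries, and apart from length the part of these measures in the result was not tested.

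In Lmx1b-/- against WT, none of 68 was called by edgeR, against 0.0184% (4) of all genes. At an unadjusted p under 0.05 there were 8 (11.8%, against 8.09% of all genes). DESeq2 and limma called 0, and edgeR without the filter on low counts called 3 (1 higher, 2 lower), with Sema3c the higher and Plxna1 among the lower. The median log2 fold change was -0.10 against 0.01, and 44 of 68 (64.7%, against 47.9%) were below 0.

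Sema3c had the smallest p, with all 3 Lmx1b-/- libraries (54.0, 58.2 and 49.2 CPM) above the 3 WT libraries (33.1, 45.9 and 35.0 CPM), and a log2 fold change of 0.50 ± 0.17 (SE), adjusted p = 0.543. Each Lmx1b-/- library of Robo4 lay below WT (-0.60 ± 0.22 (SE), adjusted p = 0.555). Sema6a had no overlap either, with lower values in Lmx1b-/- (-0.36 ± 0.14 (SE), adjusted p = 0.566). Of the 8, Sema3f (-0.75), Unc5b (-0.38), Plxna1 (-0.43) and Unc5c (-0.33) had lower means and overlapping groups, and Epha5 (0.28) a higher mean with overlap. In 5 genes (7.35%, against 6.09% of all genes) the Lmx1b-/- libraries all lay below WT, and in 2 (2.94%, against 11.9%) above. The smallest p in their families belonged to Slit2 (0.14 ± 0.13 (SE), adjusted p = 0.789), Nrp2 (0.13 ± 0.14 (SE), adjusted p = 0.823) and Efna2 (-0.37 ± 0.21 (SE), adjusted p = 0.657), whose groups overlapped. Ntn1 was at 111, 114 and 107 CPM in Lmx1b-/-, above the 99.9, 82.5 and 91.1 CPM of WT in every library (0.28 ± 0.15 (SE), adjusted p = 0.64). A p above the threshold does not show that these genes had equal levels in Lmx1b-/- and WT.

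**Figure D5:**
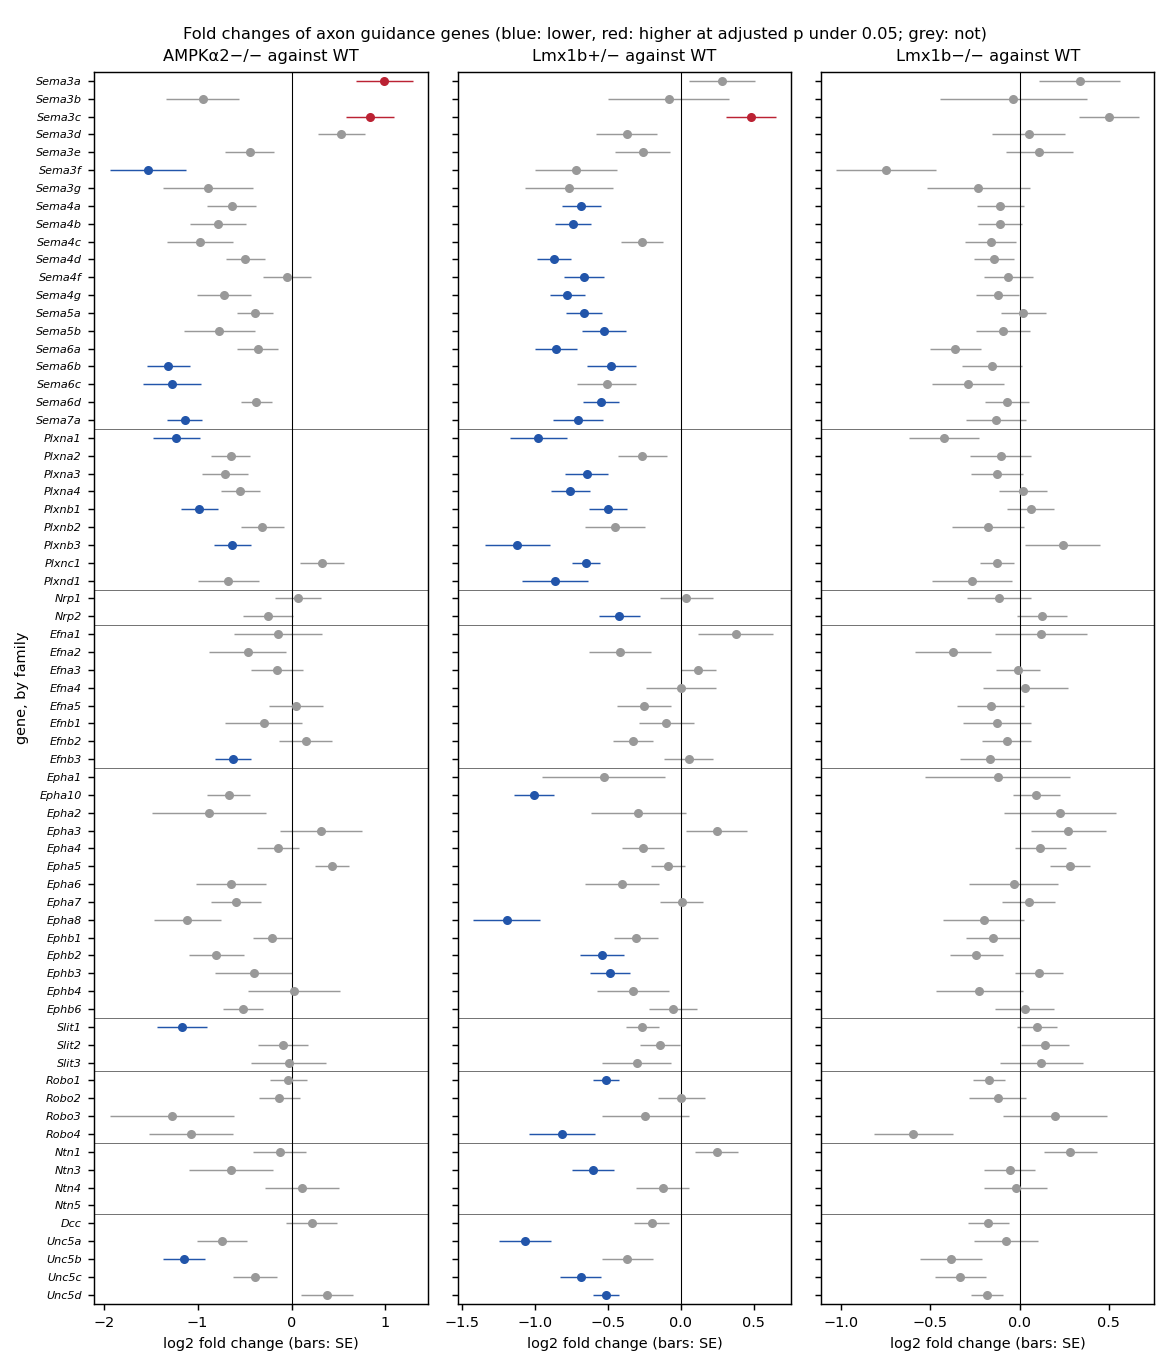
Log2 fold change (points) and its SE (bars) of each tested gene, by family, for AMPKα2-/-, Lmx1b+/- and Lmx1b-/- against their WT libraries, with genes called lower in blue, called higher in red and the rest in grey. The middle panel holds 29 blue points and 1 red point, the left panel 10 and 2, and the right panel is grey throughout.

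The Lmx1b-/- and Lmx1b+/- libraries were also compared with each other. This comparison shares its Lmx1b+/- libraries with the one against WT, so its calls are not a separate line of evidence. Of 68 genes 24 were called (35.3%, against 25.5% of all genes), all of them higher in Lmx1b-/- (against 11.5% of all genes), with a median log2 fold change of 0.36 against 0.02. At an unadjusted p under 0.05 there were 29 (42.6%, against 36.8%), 8 (11.8%, against 48.1%) had a fold change below 0, and in 31 (45.6%, against 21.0%) every Lmx1b-/- library lay above every Lmx1b+/- library. Of the 24, 22 were also among the 29 that were lower in Lmx1b+/- than in WT, and the other two were Epha5 and Slit1. Plxnb3 had the steepest fold change, at 1.36 ± 0.22 (SE), adjusted p = 0.000747, and Epha10 the smallest p, at 1.10 ± 0.14 (SE), adjusted p = 0.000126. Sema4d (0.72 ± 0.11 (SE), adjusted p = 0.000657), Plxna4 (0.78 ± 0.13 (SE), adjusted p = 0.00112), Unc5a (0.99 ± 0.18 (SE), adjusted p = 0.00168), Epha8 (0.99 ± 0.23 (SE), adjusted p = 0.0074) and Nrp2 (0.55 ± 0.14 (SE), adjusted p = 0.0124) were called as well, with no overlap between the 2 genotypes. No ephrin was called, and Efnb2 was nearest, at 0.26 ± 0.14 (SE), adjusted p = 0.2. Among other pathway genes 24 of 60 effectors were higher and 4 lower, and 25 of 55 other ligands and receptors were higher and 1 lower, against 2500 higher and 3044 lower of all 21729 genes. With the length trend removed 14 of the 24 were called, which made 20.6% of the 68 against 16.9% of all genes (6.23% higher), and Robo1 then had a log2 fold change of 0.02 (adjusted p = 0.932). The shares of mitochondrial counts and of counts on long genes did not overlap between the 2 genotypes. All 8 tested erythroid markers were lower in Lmx1b-/-. Lower too were 4 of 11 skeletal muscle, 4 of 11 serotonergic, 3 of 10 neural progenitor and 2 of 10 midbrain markers. Higher were 11 of 12 oligodendrocyte lineage, 7 of 9 astrocyte and 5 of 10 telencephalon markers. Endothelial, cerebellar, floor plate and motor neuron markers had 0 calls. Apart from length, the part of these measures was not tested.

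The AMPK and Lmx1b experiments share no library. Of the 12 genes called in AMPKα2-/- and the 30 called in Lmx1b+/-, 6 were shared (50% of the 12 and 20% of the 30), with the same direction in both. As 44.1% of all axon guidance genes tested were called in Lmx1b+/-, this overlap is near the share of any of them. Of the 12 calls 10 were lower and of the 30 calls 29, so most shared calls would have the same direction in any case. Plxna1, Plxnb1, Plxnb3, Sema6b and Sema7a were lower and Sema3c higher. Side by side, the log2 fold changes in AMPKα2-/- and Lmx1b+/- were -1.14 and -0.71 for Sema7a, -1.31 and -0.48 for Sema6b, -1.23 and -0.97 for Plxna1, and -0.98 and -0.50 for Plxnb1. For Plxnb3 they were -0.63 and -1.12, and for Sema3c 0.84 and 0.48. Both mutants also had higher mitochondrial shares and lower shares of counts on long genes than their WT libraries, and the part of the mitochondrial share in the shared calls was not tested. With the length trend removed, 3 of the 6 (Plxna1, Sema7a and Sema3c) were called in both, while Plxnb3 was not called in AMPKα2-/- and Plxnb1 and Sema6b were not in Lmx1b+/-. Unc5b, Slit1, Sema6c, Sema3f, Efnb3 and Sema3a were called in AMPKα2-/- and not in Lmx1b+/-, where their log2 fold changes were -0.37, -0.26, -0.51, -0.72, 0.06 and 0.28. Whether the genotypes differ in these genes was not tested, as the 2 experiments were not fitted together.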

How the data were processed

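Polyadenylated RNA of mouse brainstem was sequenced from a directional library kit. The authors deposited raw counts per gene for each library, with RPKM values beside them, in 1 table per experiment. The submitters' processing notes name HISAT2 and GRCm39, and the counting annotation and its strand setting are not given in the sources used here. Both values were used as deposited, and 0 other sample columns were left aside. The third AMPK WT column carries a suffix and the third Lmx1b WT column carries another library number, and both were matched to their titles. Symbols were found for 51884 of 57180 gene identifiers.

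Counts were filtered with filterByExpr, scaled by TMM and tested with edgeR 4.0.16 in R 4.3.3 (quasi-likelihood test, Benjamini-Hochberg adjustment over all genes, threshold 0.05), in 1 fit per experiment. Fold changes are given as log2 with SE. Alternatives used DESeq2 1.42.0, limma 3.58.1 on log2(RPKM + 1), other scalings and filters, removal of a lowess trend (span 0.3) of fold change with gene length, each library left out, and a replicate block. The fits were tested on simulated data. Named were the called genes by smallest p (up to 20 per comparison), the gene with the smallest p and the highest RPKM of each family, genes at or below the detection limit, and the 3 genes of smallest p in each direction of the 2 pathway lists. Further called genes of Lmx1b+/- were named after their values were seen, to complete the count. Floors of 3 counts cover counting error only. The members and gene lists were chosen with earlier results of these data known.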

Additional observations from a re-analysis of the deposited data

How the results depend on the processing

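For AMPKα2-/- against WT, 1555 of all genes and 12 of the axon guidance genes were called. With at least 10 counts required in every library these were 825 and 5 (of 14 tested), with DESeq2 650 and 6, with limma 0 and 0 (2757 and 15 at an unadjusted p under 0.05), and without both shallow libraries 6 and 0. All 6 axon guidance genes called with DESeq2 were lower. Removing the length trend left 901 genes. Leaving out 1 library gave 548 (without WT 3) to 2958 (without WT 1) genes and 7 to 16 axon guidance genes. Nrp2 turned from -0.25 to 0.061 with the length trend removed, and leaving out 1 library gave -0.55 (without WT 1) to 0.20 (without WT 3). For Lmx1b-/- against WT, 4 genes were called, and 329 without the filter on low counts (3 axon guidance genes), 36 with DESeq2, 2 with limma, 13 from the 6 libraries compared alone, and 3 to 11 with 1 library left out. For Lmx1b-/- against Lmx1b+/-, 5544 genes and 24 axon guidance genes became 3663 and 14 with the length trend removed, and 3500 to 6054 and 16 to 27 with 1 library left out. With limma the share of called genes that were higher was 30.1% in place of 53.0% for Lmx1b+/- against WT and 69.3% in place of 45.1% for Lmx1b-/- against Lmx1b+/-. Apart from the removal of the length trend, fewer genes tested or fewer libraries, the cause of these shifts was not tested. Depth limits the AMPK experiment, where the shallow libraries hold 3 counts or fewer for 29 of the 69 genes.

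The replicate numbers did not pair the samples: same-numbered AMPK libraries had correlations of 0.048, -0.088 and -0.12, and those of the Lmx1b experiment ranged from -0.18 to 0.15. With the replicate number as a block, 1350 genes (11 of them axon guidance genes) were called in AMPKα2-/-, 7243 (30) in Lmx1b+/- and 5 (0) in Lmx1b-/- against WT, and 4720 (25) in Lmx1b-/- against Lmx1b+/-.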
